A study of Mus musculus with 6 samples.

Results

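Markers of the macrophages and neutrophils of the liver were followed, liver by liver, in mice whose hepatocytes expressed wild-type or mutant FXR. The 10 genes are Clec4f, Cd5l, Vsig4, Csf1r, Cd68, C1qa, C1qb, C1qc, S100a8 and S100a9. They were chosen by name as markers, 8 of Kupffer cells and macrophages and 2 of neutrophils, among 23284 genes of the count files, and all 10 had enough reads to be tested among 12453 genes. All 6 livers came from male FXR-floxed mice that were injected at 8 weeks of age with AAV8 carrying Cre under the TBG promoter, the recombinase that removes the floxed mouse FXR gene, so both groups carried this deletion by design. The same mice received AAV8-TBG with an FXR transgene, as FXR-WT in 3 mice and as Y67F-FXR in 3 mice. FXR is the bile acid receptor, and in Y67F-FXR a tyrosine that Src phosphorylates is replaced by phenylalanine. At 4 weeks after injection all mice were fed chow with 0.5% cholic acid for 6 h, and liver mRNA was sequenced with 1 library per mouse. The TBG promoter is active in hepatocytes, so neither Cre nor the FXR transgene was directed to Kupffer cells or neutrophils. The comparison asks whether the immune cell markers of whole liver differed between these groups.

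Kupffer cells are the resident macrophages of the liver sinusoids, where they take up particles, bacteria and aged erythrocytes from portal blood. Clec4f is a galactose-binding lectin restricted to Kupffer cells in mice, Vsig4 is a receptor for complement C3 fragments, and Cd5l is a protein secreted by tissue macrophages. Csf1r, the receptor for Csf1 and Il34, maintains macrophages of most tissues, and Cd68 is a lysosomal membrane protein of macrophages. C1qa, C1qb and C1qc encode the 3 chains of C1q, the recognition molecule of the classical complement pathway, which in the body is made mainly by macrophages and related myeloid cells. S100a8 and S100a9 form calprotectin, the calcium- and zinc-binding protein that fills the cytosol of neutrophils and is also made by monocytes. In whole liver RNA, fewer cells of a type and less of an RNA per cell cannot be told apart.

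In the mm9 coordinates of the count files, the 3 C1q genes lie next to each other on the minus strand of chromosome 4, C1qb at 136436061 to 136442092, C1qc at 136445717 to 136448829 and C1qa at 136451831 to 136454759. S100a8 (90472993 to 90473956, plus strand) and S100a9 (90496555 to 90499613, minus strand) are neighbours on chromosome 3, which also holds Cd5l (87161803 to 87174996). Clec4f is on chromosome 6 (83594536 to 83606110), Cd68 on chromosome 11 (69477873 to 69479564) and Vsig4 on chromosome X (93442542 to 93488777). None of the 10 shared exon bases with another gene of the annotation. Their exonic lengths ran from 392 bp (S100a8) and 488 bp (S100a9) to 3875 bp (Csf1r), against a median of 2818 bp over all tested genes.

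The promoters of the 2 neutrophil genes and of 2 C1q genes are printed because each of these sets varied together across the livers. They are the 250 bases upstream of the start in RefSeq on GRCm38.p6, written 5′ to 3′ on the strand of the gene, and capitals mark GAGGAA, a core of sites of the myeloid factor PU.1, on either strand (TTCCTC on the other).
S100a8: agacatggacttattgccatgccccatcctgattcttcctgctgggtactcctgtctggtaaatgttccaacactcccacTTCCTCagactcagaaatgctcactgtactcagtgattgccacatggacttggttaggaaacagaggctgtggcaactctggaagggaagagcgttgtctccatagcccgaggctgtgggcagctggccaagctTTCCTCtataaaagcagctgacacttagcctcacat
S100a9: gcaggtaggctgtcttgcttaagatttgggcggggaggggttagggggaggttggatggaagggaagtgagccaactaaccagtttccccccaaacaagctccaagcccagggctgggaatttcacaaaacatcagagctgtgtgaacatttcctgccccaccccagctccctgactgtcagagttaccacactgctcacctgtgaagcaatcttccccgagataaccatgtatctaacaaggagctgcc
C1qb: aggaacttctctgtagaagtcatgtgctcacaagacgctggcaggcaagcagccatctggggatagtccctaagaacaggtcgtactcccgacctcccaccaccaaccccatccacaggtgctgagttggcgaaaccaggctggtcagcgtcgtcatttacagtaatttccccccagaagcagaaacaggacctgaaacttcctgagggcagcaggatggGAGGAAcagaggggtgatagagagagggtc
C1qc: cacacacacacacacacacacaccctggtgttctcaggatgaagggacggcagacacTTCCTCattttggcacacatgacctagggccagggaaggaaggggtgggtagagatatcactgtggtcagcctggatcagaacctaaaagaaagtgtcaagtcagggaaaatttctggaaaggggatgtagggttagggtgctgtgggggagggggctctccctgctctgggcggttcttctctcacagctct
These windows are chr3:90668821-90669070 (plus strand) for S100a8, chr3:90695722-90695971 (minus strand) for S100a9, chr4:136886201-136886450 (minus strand) for C1qb and chr4:136892915-136893164 (minus strand) for C1qc. Promoters of 8 of the 10 genes were matched in the RefSeq table used here, and those of C1qa and Csf1r were not analysed here. The 6 letters were found in 6 of these 8, at 2 positions in S100a8 and Vsig4, at 1 position in Cd5l, Cd68, C1qb and C1qc, and at none in S100a9 and Clec4f. Of 32851 RefSeq promoters of the same length, 23.3% held them. A match is a string of letters and not a shown binding site.

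Libraries held from 19551113 to 22053320 counted reads. Levels are given as CPM, the reads of a gene relative to its library's total, scaled by edgeR's TMM factors, and as RPKM, which also divides by the exonic length of the gene, where genes are compared with each other. Differences are log2 fold changes of Y67F-FXR over FXR-WT with a standard error (SE) and an unadjusted 95% interval. The test was edgeR's quasi-likelihood test, with p adjusted over all tested genes by the method of Benjamini and Hochberg, and a gene counted as called where this p was under 0.05 and the fold change above 1.5. On this rule 53 genes (0.426% of those tested) were called lower and 68 (0.546%) higher in Y67F-FXR livers. Nr1h4, the floxed FXR gene, had 152 to 209 CPM in FXR-WT and 169 to 186 CPM in Y67F-FXR livers, but its reads may include those of the transgene, so they do not check the deletion. Livers of 1 group also differed in the reads of short genes. In the shortest 20% of genes (median 1152 bp) the median deviation from the mean of the 6 livers was, on the log2 scale, 0.20, -0.02 and -0.18 in the FXR-WT livers and -0.20, 0.22 and -0.01 in the Y67F-FXR livers, in the order of replicates 1 to 3 that is used throughout.

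Kupffer cell markers were well expressed in every liver, and the neutrophil pair was sparse. On the RPKM scale, as mean ± SD over all 6 livers, the C1q chains came first, with C1qa at 53.3 ± 22.8, C1qb at 48.7 ± 19.3 and C1qc at 47.3 ± 16.9. Clec4f (26.6 ± 7.53 RPKM) and Cd5l (26.3 ± 11.5 RPKM) followed, then Vsig4 at 11.1 ± 1.65, Cd68 at 7.95 ± 1.57 and Csf1r at 7.90 ± 1.88 RPKM. S100a9, at 3.56 ± 2.67 RPKM, and S100a8, at 1.51 ± 1.29 RPKM, came last. Among neighbours in this order, only the ranges of Cd5l and Vsig4 did not overlap, so the order within the other neighbouring pairs was not separated by the spread between livers. Within a liver the order was tighter, with C1qc above Clec4f, Vsig4 above Cd68 and S100a9 above S100a8 in 6 of 6 livers, but Cd68 above Csf1r in 3 of 6.

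None of the 10 markers was called (0 of 10), against 0.972% of all tested genes called in either direction. At an unadjusted p under 0.05 by edgeR's quasi-likelihood test, 2 markers were lower in Y67F-FXR livers, S100a8 and S100a9, and 0 were higher, where 6.67% of all tested genes were lower and 6.75% higher. The 3 livers of one group lay apart from the 3 of the other in these 2 genes (lower in Y67F-FXR, as in 10.5% of all tested genes, beside 10.2% higher and 20.6% in either direction) and overlapped in the 8 Kupffer cell and macrophage genes. Of these 8, the fitted log2 fold change was above 0 in 6 and below 0 in 2 (52.0% and 48.0% of all tested genes), and their median was 0.15, beside 0.01 over all tested genes.

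**Figure D1:**
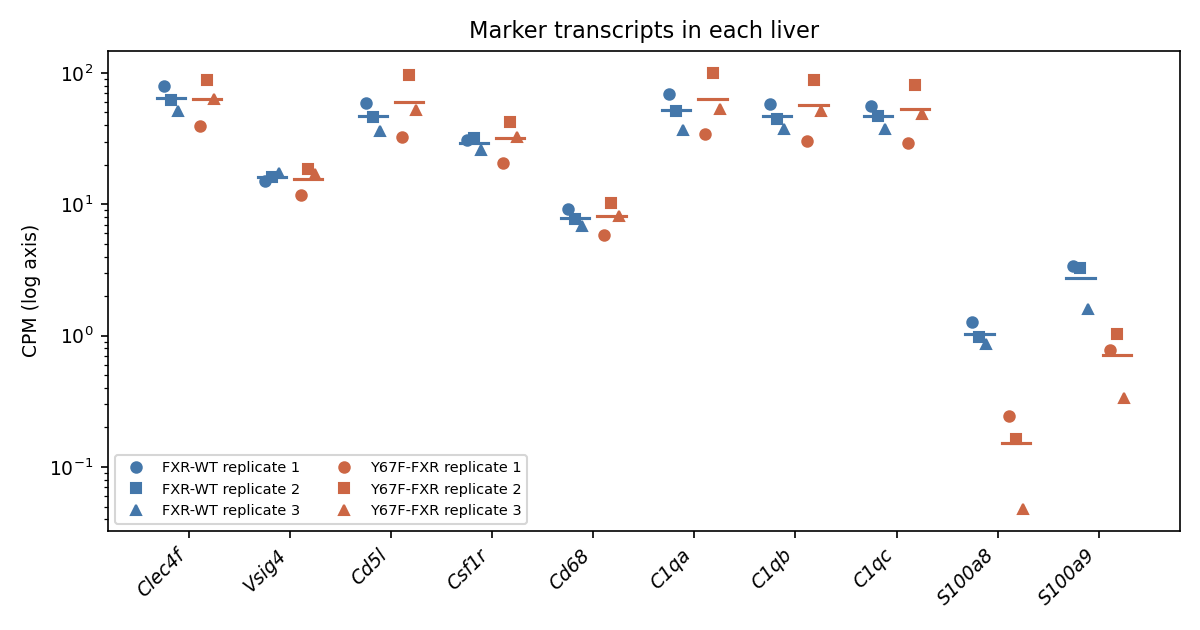
CPM of each marker (log axis) in the 3 FXR-WT and 3 Y67F-FXR livers, 1 point per liver with the replicate numbers of the labels and a bar at each group mean. The points of the 2 groups overlap in the 8 Kupffer cell and macrophage markers and lie apart in S100a8 and S100a9.

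The lectin of Kupffer cells, Clec4f, had 79.7, 61.8 and 51.5 CPM in FXR-WT replicates 1 to 3 and 39.1, 88.5 and 62.8 CPM in Y67F-FXR replicates 1 to 3. Both the lowest and the highest liver were thus Y67F-FXR livers, with the FXR-WT livers between them. The group means were 64.4 ± 14.3 and 63.5 ± 24.7 CPM (SD, n = 3 each), and the log2 fold change was -0.020 (SE 0.290, interval -0.69 to 0.65, adjusted p = 0.991 by edgeR's quasi-likelihood test). The interval runs from 0.621 to 1.57 times the FXR-WT level.

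Vsig4, the complement receptor, varied least of the 10. It had 15.2, 16.2 and 17.3 CPM in the FXR-WT livers and 11.7, 18.4 and 16.9 CPM in the Y67F-FXR livers. The log2 fold change was -0.053 (SE 0.184, interval -0.48 to 0.37, adjusted p = 0.950 by edgeR's quasi-likelihood test). Cd5l, the secreted macrophage protein, varied more, with 58.9, 45.8 and 35.8 CPM in FXR-WT and 32.2, 97.0 and 52.2 CPM in Y67F-FXR livers. Its highest liver, Y67F-FXR replicate 2, was 3.01 times its lowest, Y67F-FXR replicate 1, and the FXR-WT livers again lay between them. The log2 fold change was 0.37 (SE 0.372, interval -0.49 to 1.23, adjusted p = 0.751 by edgeR's quasi-likelihood test), and without Y67F-FXR replicate 2 it was -0.16.

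Of the broader macrophage markers, the growth factor receptor Csf1r had 30.8, 31.8 and 25.7 CPM in FXR-WT and 20.8, 42.4 and 32.4 CPM in Y67F-FXR livers. The lysosomal protein Cd68 had 9.14, 7.66 and 6.87 CPM in FXR-WT and 5.88, 10.3 and 8.21 CPM in Y67F-FXR livers. For both, the lowest liver was Y67F-FXR replicate 1 and the highest Y67F-FXR replicate 2. The log2 fold changes were 0.11 for Csf1r (SE 0.242, interval -0.44 to 0.67) and 0.043 for Cd68 (SE 0.228, interval -0.48 to 0.57). Neither passed the test (adjusted p = 0.906 and 0.969 by edgeR's quasi-likelihood test).

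The 3 chains of C1q ordered the 6 livers alike. C1qa had 69.5, 51.4 and 36.5 CPM in FXR-WT and 34.3, 100.5 and 53.5 CPM in Y67F-FXR livers. C1qb had 58.3, 44.7 and 37.4 CPM in FXR-WT and 30.4, 88.4 and 51.0 CPM in Y67F-FXR livers. C1qc had 56.1, 47.1 and 37.3 CPM in FXR-WT and 29.5, 81.1 and 48.3 CPM in Y67F-FXR livers. For each chain, Y67F-FXR replicate 2 was highest, FXR-WT replicate 1 second and Y67F-FXR replicate 1 lowest, a range of 2.93, 2.91 and 2.75 times for C1qa, C1qb and C1qc. The log2 fold changes were 0.26 (SE 0.385) for C1qa, 0.27 (SE 0.355) for C1qb and 0.18 (SE 0.335) for C1qc, each smaller than its SE. Their intervals were -0.63 to 1.15, -0.55 to 1.09 and -0.60 to 0.95, and the adjusted p was 0.855, 0.821 and 0.894 by edgeR's quasi-likelihood test. The chains stayed close to each other within a liver, since on the RPKM scale C1qb was 0.856 to 1.05 times C1qa and C1qc was 0.923 to 1.06 times C1qb.

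**Figure D2:**
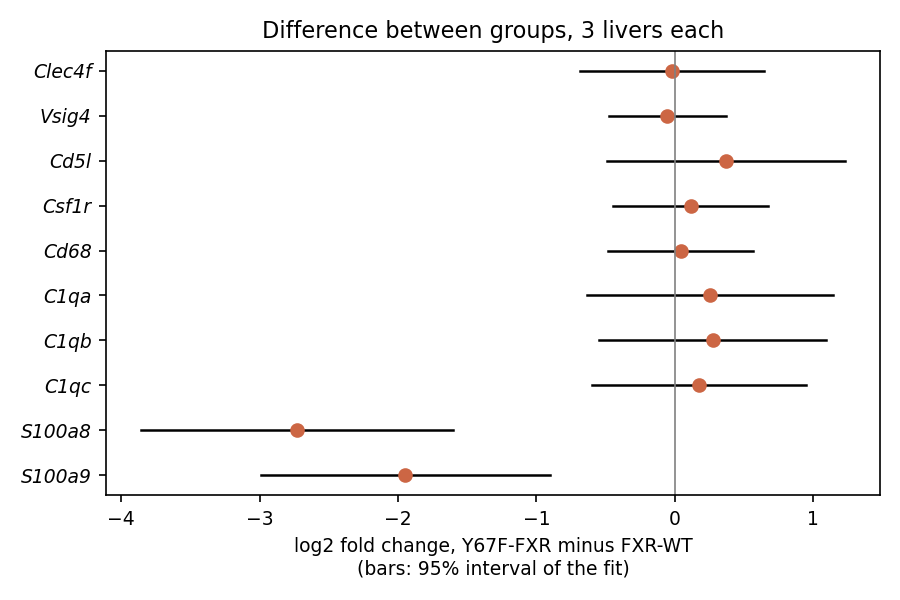
Log2 fold change of Y67F-FXR over FXR-WT for each marker (points) with its 95% interval from edgeR's quasi-likelihood test (lines), not adjusted for the number of genes. The intervals of the 8 Kupffer cell and macrophage markers include 0, and those of S100a8 and S100a9 lie below 0.

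The 8 Kupffer cell and macrophage genes had the same lowest and the same highest liver, and both were Y67F-FXR livers. Y67F-FXR replicate 1 was the lowest and Y67F-FXR replicate 2 the highest of the 6 livers in all 8. Between these the order was not shared by all, since FXR-WT replicate 1 was among the 2 highest livers in 6 of the 8 but second lowest for Vsig4. The median log2 deviation of the 8 from their 6-liver means was 0.24, -0.03 and -0.30 in FXR-WT replicates 1 to 3 and -0.64, 0.65 and 0.06 in Y67F-FXR replicates 1 to 3. The livers at both ends were those at the ends of the gene length pattern, and after a gene length trend had been taken out the medians were 0.11, -0.02 and -0.25 in FXR-WT and -0.48, 0.58 and 0.06 in Y67F-FXR livers. The order of these medians over the livers was thus the same without the trend, and the span from the lowest to the highest liver was smaller. For Vsig4 the highest liver changed, to FXR-WT replicate 3 (0.23), above Y67F-FXR replicate 2 (0.11). Without Y67F-FXR replicate 2 the fitted log2 fold changes of Cd5l, Csf1r, Cd68 and the C1q chains were below 0, at -0.27 for C1qa and -0.28 for C1qc. Relative to Clec4f in the same liver, on the RPKM scale, the ranges over the 6 livers were 0.239 to 0.329 for Csf1r, 0.273 to 0.358 for Cd68, 0.319 to 0.563 for Vsig4, 0.819 to 1.29 for Cd5l and 1.57 to 2.52 for C1qa. Csf1r and Cd68 thus kept a narrower ratio to Clec4f than Vsig4, Cd5l or C1qa did.

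**Figure D3:**
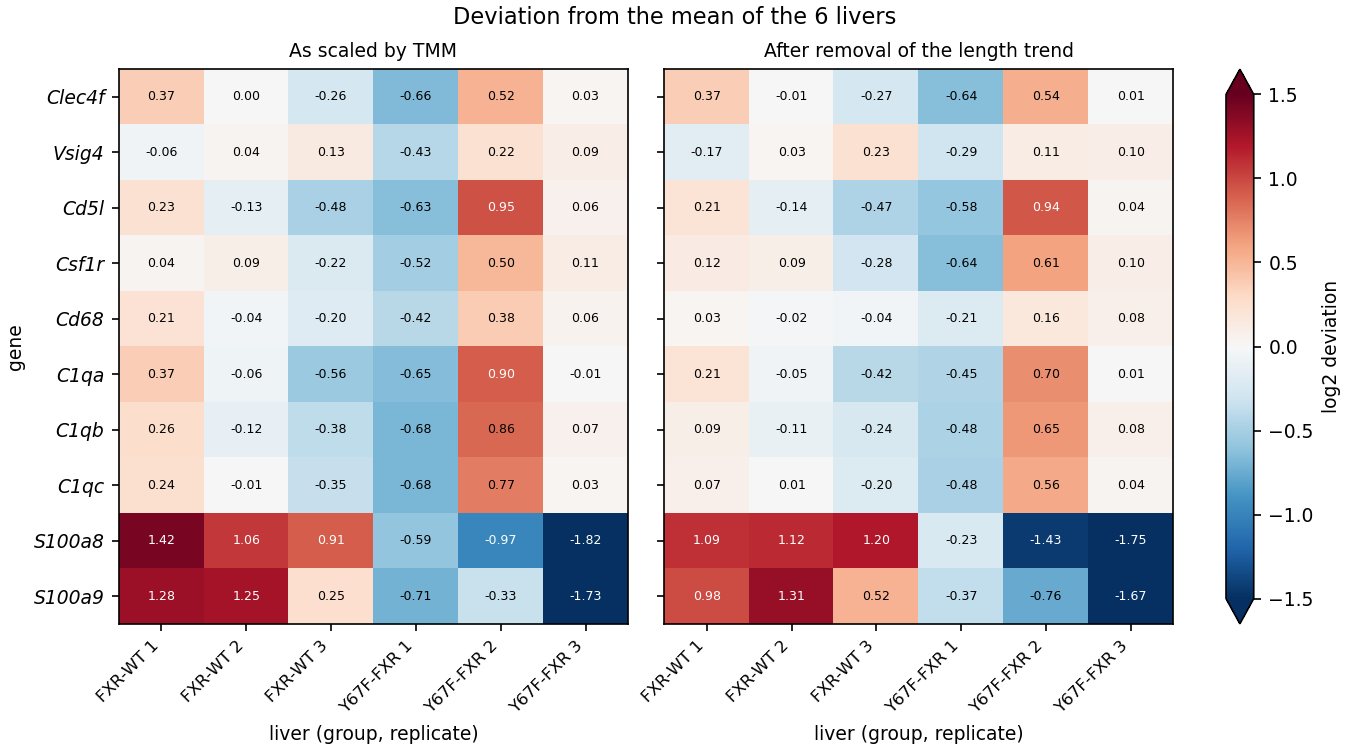
Log2 deviation of each marker from its mean over the 6 livers (colour, log2 CPM with a prior count of 2), per liver, as scaled by TMM and after removal of the gene length trend. In both panels Y67F-FXR replicate 1 is lowest and replicate 2 is above 0 in the 8 Kupffer cell and macrophage markers. After removal of the trend, FXR-WT replicate 3 is above Y67F-FXR replicate 2 in Vsig4. S100a8 and S100a9 are low in all 3 Y67F-FXR livers.

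S100a8 and S100a9 divided the livers by group, which none of the 5 other tested neutrophil genes did. S100a8 had 26, 20 and 20 reads in the FXR-WT livers against 5, 3 and 1 reads in the Y67F-FXR livers, which is 1.27, 0.970 and 0.864 CPM against 0.243, 0.164 and 0.0477 CPM. S100a9 had 69, 68 and 37 reads in FXR-WT and 16, 19 and 7 reads in Y67F-FXR livers, or 3.37, 3.30 and 1.60 CPM against 0.778, 1.04 and 0.334 CPM. For both genes every Y67F-FXR liver lay below every FXR-WT liver, and Y67F-FXR replicate 3 was the lowest. The group means were 1.03 ± 0.211 and 0.151 ± 0.0982 CPM for S100a8 and 2.76 ± 1.003 and 0.716 ± 0.355 CPM for S100a9 (SD, n = 3 each). Y67F-FXR replicate 2, the highest liver for the Kupffer cell genes, was at 0.164 CPM for S100a8. Both RNAs are short, and the median log2 deviation of the 216 shortest tested genes (median length 496.5 bp) was 0.29, -0.07 and -0.33 in FXR-WT and -0.31, 0.47 and -0.04 in Y67F-FXR livers, which overlapped between the groups. The median of S100a8 and S100a9 was 1.35, 1.15 and 0.58 in FXR-WT and -0.65, -0.65 and -1.78 in Y67F-FXR livers. With the gene length trend taken out it was 1.04, 1.21 and 0.86 against -0.30, -1.10 and -1.71, so the groups lay apart on both scales.

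The log2 fold change was -2.73 for S100a8 (SE 0.488, interval -3.86 to -1.60), a level 6.63-fold lower in Y67F-FXR livers, with adjusted p = 0.0529 by edgeR's quasi-likelihood test. For S100a9 it was -1.95 (SE 0.452, interval -2.99 to -0.90), a level 3.85-fold lower, with adjusted p = 0.106 from the same test. Neither therefore passed the adjusted threshold, though by unadjusted p they ranked 123 and 308 of 12453 genes. S100a8 passed the filter on low counts only through its FXR-WT livers (26, 20 and 20 reads), since its Y67F-FXR livers had 5, 3 and 1 reads. Its rank thus depends on this filter and is no support for the difference. The counts are low, and the call turned on the processing. S100a8 was called where library totals replaced the TMM factors (adjusted p = 0.0487) and with no filter on low counts (adjusted p = 0.0448) in edgeR's quasi-likelihood test. Both genes were called with gene length offsets (adjusted p = 0.0344 and 0.0451) and by DESeq2 (adjusted p = 0.00427 and 0.00421), which called 3.31% of its tested genes. Over all genes, the offsets called 124 lower and 123 higher, the test with no filter 81 and 86, and library totals 68 and 52, against 53 and 68.

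With any 1 liver left out, the log2 fold change stayed between -3.26 and -2.29 for S100a8 and between -2.30 and -1.59 for S100a9, and neither was called. The 2 RNAs kept a looser ratio than the C1q chains. On the RPKM scale S100a9 was 1.49 to 5.62 times S100a8 over the 6 livers, and 1 to 5 reads of S100a8 stand behind this ratio in the Y67F-FXR livers. The gene most like S100a8 across the livers, by the root mean square difference of log2 deviations among 11514 genes of at least 1 CPM, was S100a9 (0.393), followed by Fabp5 (0.448) and Kdm1a (0.482). For Clec4f, the same measure ranked C1qc 41, Cd68 63, Csf1r 139, C1qb 204, C1qa 547, Cd5l 691 and Vsig4 1778 of 11513 genes, behind Tulp3 (0.0601), Plekho1 (0.0686) and Mrp63 (0.0729). Fabp5 is a fatty acid binding protein, and Kdm1a is a histone demethylase.

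Other neutrophil genes were near the limit of these libraries. Of 25 markers on the neutrophil list, S100a8 and S100a9 included, 7 could be tested. The other 23 summed to 197, 193 and 126 reads in FXR-WT and 92, 170 and 128 reads in Y67F-FXR livers, or 9.63, 9.36 and 5.44 CPM against 4.47, 9.27 and 6.11 CPM, so the groups overlapped. Mpo, Ctsg and Fcnb, granule genes made in the bone marrow stages of the lineage, had 0 reads in all 6 livers. Other granule genes of the list did have reads. Elane had 5, 1 and 5 reads in FXR-WT and 2, 2 and 1 reads in Y67F-FXR livers, and Prtn3 had reads in all 6 livers. In all, 14 of the 23 had fewer than 10 reads in every liver. The G-CSF receptor Csf3r had 41, 53 and 31 reads in FXR-WT and 19, 13 and 31 reads in Y67F-FXR livers, and its log2 fold change was -0.91 (adjusted p = 0.338 by edgeR's quasi-likelihood test). Of the 5 other tested neutrophil genes it was the only one with an unadjusted p under 0.05. These 5 had 2 fitted values above 0 and 3 below 0, with a median log2 fold change of -0.045, and the groups overlapped in each of them. The formyl peptide receptor Fpr1, the most abundant by reads in a single liver (54), had a log2 fold change of 0.10.

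Among the genes too sparse to test, the granule collagenase Mmp8 had 3, 2 and 2 reads in FXR-WT and 0, 0 and 0 reads in Y67F-FXR livers. Cd177, a neutrophil surface protein, had 3, 3 and 3 against 1, 1 and 1 reads. Prtn3, a granule protease, had 24, 9 and 8 against 1, 6 and 2 reads. These 3, named after their values were seen, are the only ones of the 23 whose groups lay apart, each with every Y67F-FXR liver below every FXR-WT liver, as in 10.5% of all tested genes. The resistin-like gene Retnlg of mature neutrophils had 8, 8 and 4 reads against 4, 18 and 3 reads, and the chemokine receptor Cxcr2 had 12, 5 and 1 against 6, 3 and 2 reads, so these 2 overlapped. None of these 5 passed the filter on low counts, so their differences were not tested.

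**Figure D4:**
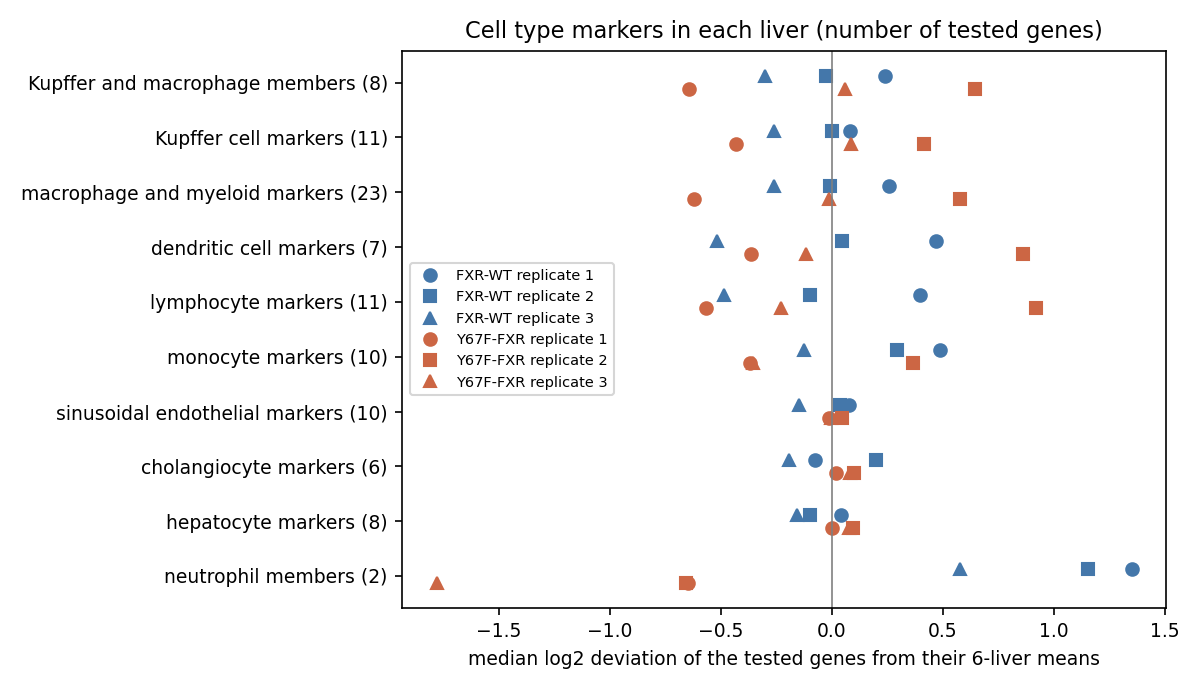
Median log2 deviation from the 6-liver gene mean for each marker list in each liver (points, log2 scale). The macrophage, dendritic cell and lymphocyte medians are highest in Y67F-FXR replicate 2, and the S100a8 and S100a9 pair is below 0 in all 3 Y67F-FXR livers.

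The other Kupffer cell and macrophage genes showed no call either. Of the Kupffer cell list, all 11 were tested, and the 8 that are not among the 10 markers had 7 fitted values above 0, 1 below 0 and a median log2 fold change of 0.21. Fcna, a ficolin of Kupffer cells, was the only one with an unadjusted p under 0.05, at 30.7 ± 2.51 against 40.5 ± 7.39 CPM (SD, n = 3 each), a log2 fold change of 0.40 and an adjusted p of 0.338 by edgeR's quasi-likelihood test. The scavenger receptor Marco had the largest fitted value, 1.63, on 9.21 ± 4.13 against 28.5 ± 29.6 CPM. It rested on Y67F-FXR replicate 2, which had 62.2 CPM where the other livers had 5.40 to 16.5 CPM, and without that liver the log2 fold change of Marco was 0.33. The summed level of the 8 ran from 68.4 to 75.0 CPM in FXR-WT and from 66.5 to 151 CPM in Y67F-FXR livers. Of the wider macrophage and myeloid list, 18 genes outside the 10 markers were tested, with 11 fitted values above 0, 7 below 0, a median of 0.05 and 0 at an unadjusted p under 0.05 by edgeR, with 0 called by that test. The lysozyme gene Lyz2, among the most abundant of them, had a log2 fold change of -0.17.

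Lists of other leukocytes were read by the same rule. Of 10 tested monocyte genes, 8 had fitted values below 0 and 2 above, with a median log2 fold change of -0.49. Their median deviation was 0.48, 0.29 and -0.12 in FXR-WT and -0.37, 0.36 and -0.36 in Y67F-FXR livers, so the groups overlapped. Of 7 tested dendritic cell genes 6 had values above 0 (median 0.25), and of 11 lymphocyte genes 9 (median 0.37). Both lists were highest in Y67F-FXR replicate 2, by median deviations of 0.86 and 0.92, and low in Y67F-FXR replicate 1 (-0.36 and -0.57), as the Kupffer cell markers were. By the naming rule, the log2 fold change was 0.09 for the integrin Itgal and -0.25 for Plac8 among monocyte genes, 0.36 for the interferon-induced Bst2 and 0.25 for the MHC class II gene H2-Aa among dendritic cell genes, and 0.37 for Coro1a, 0.03 for Ptprc (CD45) and 1.15 for the cytotoxic granule gene Nkg7 among lymphocyte genes. For Nkg7 it was -0.22 without Y67F-FXR replicate 2. No gene of the monocyte, dendritic cell or lymphocyte lists had an unadjusted p under 0.05 in edgeR's quasi-likelihood test.

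Lists of the other liver and blood cells give the measure of what else was in the samples. The median log2 fold change was 0.01 for 10 sinusoidal endothelial genes, -0.22 for 10 stellate cell genes, 0.12 for 6 cholangiocyte genes and 0.11 for 8 hepatocyte genes. Fitted values were above 0 in 6 and below 0 in 4 endothelial genes, in 2 and 8 stellate cell genes, in 5 and 1 cholangiocyte genes and in 6 and 2 hepatocyte genes. No gene of these lists was called, but 3 of the 10 stellate cell genes and 1 of the 10 endothelial genes were lower at an unadjusted p under 0.05 in edgeR's quasi-likelihood test. Lrat, which makes the retinyl esters that stellate cells store, was lower in every Y67F-FXR liver than in any FXR-WT liver, with a difference of -1.15 on the log2 scale (adjusted p = 0.0540 in edgeR, and 0.0189 with gene length offsets). The collagen gene Col1a1 (-0.77) and the endothelial hyaluronan receptor Lyve1 (-0.89) also lay apart and lower, while the smooth muscle actin gene Acta2 (-1.95, and -0.50 without FXR-WT replicate 1) overlapped. The summed level of the stellate cell list was 362 to 452 CPM in FXR-WT and 348 to 408 CPM in Y67F-FXR livers. Endothelial medians stayed within -0.15 and 0.08 of the 6-liver mean, a narrower spread than the -0.64 to 0.65 of the 8 macrophage markers. The endothelial genes are longer, with a median of 3645.5 bp against 1257 bp. With the gene length trend taken out, the ranges were -0.21 to 0.08 and -0.48 to 0.58. The erythroid genes, which mark blood left in the tissue, summed to 206 to 374 CPM in FXR-WT and to 185 to 387 CPM in Y67F-FXR livers, so they overlapped between the groups. Only 2 of the 8 erythroid genes found could be tested. Hba-a1, Hba-a2, Hbb-b1 and Hbb-b2 had 0 reads, and each shares exon bases with another of these 4, where reads were dropped. Hbb-bs had 284, 209 and 116 CPM in FXR-WT and 98.6, 197 and 273 CPM in Y67F-FXR livers. Alas2 ran from 80.1 to 114 CPM over the 6 livers. The part of the erythroid and stellate cell genes in the S100a8 and S100a9 values was not tested.

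The ligands, receptors and partners of the 10 markers were given by a list of 15 genes, of which 13 were tested. Fitted values were above 0 in 9 and below 0 in 4, and 3 were lower at an unadjusted p under 0.05. Csf1, the ligand of Csf1r, had 11.7 ± 1.28 CPM in FXR-WT and 8.90 ± 0.904 CPM in Y67F-FXR livers (SD, n = 3 each). Every Y67F-FXR liver was lower, with a log2 fold change of -0.39 and an adjusted p of 0.321 by edgeR's quasi-likelihood test. Il34, the other ligand, had 1.76, 2.04 and 0.994 CPM in FXR-WT and 1.70, 3.93 and 2.39 CPM in Y67F-FXR livers, which overlapped. C3, whose fragments bind Vsig4, had a log2 fold change of -0.08, and Tlr4, a receptor for calprotectin with few reads in any liver, one of 0.20. Ly96, the partner protein of Tlr4, was lower in every Y67F-FXR liver, with a difference of -0.51 on the log2 scale (adjusted p = 0.369 in edgeR). Calr, an endoplasmic reticulum chaperone that can also bind C1q at the cell surface, was the only gene of the list that was called. It fell from 1282 ± 152 to 687 ± 79.3 CPM (SD, n = 3 each), a log2 fold change of -0.90 with an adjusted p of 0.0381 by edgeR's quasi-likelihood test. With any 1 liver left out this call of Calr was lost, at adjusted p from 0.0724 to 0.137 in the same test.

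The rest of the S100 family, small calcium-binding proteins of many cell types, had fitted values mostly above 0. Of 12 other S100 genes 7 were tested, with 5 fitted values above 0, 2 below 0, a median log2 fold change of 0.16 and 0 at an unadjusted p under 0.05 in edgeR's quasi-likelihood test. The log2 fold change was 0.46 for S100a13, 0.22 for S100a10 and 0.17 for S100a1. Of 15 chemoattractants and growth factors of myeloid cells 5 were tested, and the 1 with an unadjusted p under 0.05 was Csf1. Of these 5, 2 had fitted values above 0 and 3 below 0, with a median log2 fold change of -0.18. Cxcl12, the chemokine that holds neutrophils in the bone marrow, had a log2 fold change of -0.18. The chemokine Cxcl1 had one of -0.73 (adjusted p = 0.461 by edgeR's quasi-likelihood test), and its groups overlapped. Cxcl2, too sparse to test, had 6, 4 and 3 reads in FXR-WT and 0, 1 and 2 reads in Y67F-FXR livers.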

How the data were processed

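RNA-seq of whole liver covered 3 mice with FXR-WT and 3 with Y67F-FXR, and groups and replicate numbers are those of the labels. The authors deposited raw counts per gene, made with STAR and featureCounts 1.4.6-p4 on UCSC mm9 genes (the submitters' notes give STAR 2.5.3a and Trimmomatic 0.36), and strand was not used. Both reads of a pair were counted on their own, and multi-mapping reads and reads shared by genes were dropped. The authors' table of their own comparison (fold changes, p-values) was not used. Counts were analysed with edgeR 4.0.16 (filterByExpr, TMM, glmQLFit, glmQLFTest) in R 4.3.3, limma 3.58.1 and DESeq2 1.42.0. Python 3.11.15 and matplotlib 3.10.9 drew the plots. Log2 CPM used a prior count of 2, and the gene length trend a loess of span 0.3. edgeR estimated a common biological coefficient of variation of 0.194. The replicates of each group differed by more than counting noise. Alternatives were other scalings, DESeq2, other filters, gene length offsets, the replicate number as a block and each liver left out. Leaving out 2 livers at once was added after seeing the data. The markers and the gene lists were chosen with earlier results of these data known, and the named genes are the 10 markers and, of each list, the 2 most abundant other tested genes, the 1 with the smallest p and any called, plus the 3 genes nearest in pattern to S100a8 and to Clec4f. Some genes that this rule gives are left out of the text. Further genes were named after their values were seen, and of the lists of other liver cells only genes with an unadjusted p under 0.05. Adgre1, Spi1, Chil3 and Hbb-bs were found under older symbols, and Ly6g, Trac, Hbb-bt and Ahsp were not matched.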

Additional observations from a re-analysis of the deposited data

How the results depend on the processing

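The number of markers called was 0 and remained 0 with DESeq2's size factors in edgeR, the stricter filter, no fold minimum, the replicate block, each liver left out and both pairs of livers left out. It was 1 (S100a8) with library totals and with no filter, and 2 (S100a8 and S100a9) with gene length offsets and with DESeq2's own test. Over all genes, those called lower numbered 81 with no filter, 124 with gene length offsets and 206 with DESeq2, and those called higher 123 and 213 with the latter 2, against 53 and 68. With 1 liver left out, 7 to 33 were called lower and 2 to 35 higher. Without FXR-WT replicate 1 and Y67F-FXR replicate 2, the numbers were 97 and 105, and without FXR-WT replicate 3 and Y67F-FXR replicate 1 they were 4 and 1, a choice added after seeing the data. The cause of these shifts was not tested.

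The labels do not say whether a replicate number pairs the livers. Same-numbered livers had correlations of deviations of -0.52, -0.08 and 0.12, and differently numbered livers had correlations from -0.59 to 0.58. These values cannot decide whether the livers were paired, since the livers also differed in the gene length pattern. With the replicate block, 6 genes were called lower and 2 higher, the adjusted p in edgeR's quasi-likelihood test was 0.149 for S100a8 and 0.124 for S100a9, and the call of Calr was lost (adjusted p = 0.139). With the block and gene length offsets together, 45 genes were called lower and 48 higher, and the calls of S100a8 and S100a9 made with the offsets alone were lost (adjusted p = 0.109 and 0.067 in edgeR).

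With library totals, the log2 fold change turned to -0.034 for Cd68 and -0.040 for Ptprc. With 1 or 2 livers left out, the log2 fold change of genes that changed sign ran from -0.35 to 0.23 for Clec4f, -0.16 to 0.67 for Cd5l, -0.25 to 0.17 for Vsig4, -0.16 to 0.35 for Csf1r, -0.17 to 0.23 for Cd68, -0.27 to 0.55 for C1qa, -0.21 to 0.57 for C1qb and -0.28 to 0.47 for C1qc. The same ranges were -0.36 to 0.048 for Lyz2, -0.34 to 0.38 for Fpr1, -0.16 to 0.23 for Itgal, -0.57 to 0.030 for Plac8, -0.089 to 0.67 for Bst2, -0.45 to 0.59 for H2-Aa, -0.46 to 0.76 for Coro1a, -0.23 to 0.21 for Ptprc, -0.22 to 1.65 for Nkg7, -0.071 to 0.37 for Tlr4 and -0.051 to 0.39 for S100a1. S100a8 and S100a9 kept their sign under every alternative that gave a value. S100a8 did not pass the stricter filter, so it has no value there. With 1 to 26 reads of S100a8 per liver, counting noise limits its values more than those of the other markers.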
